A study of Mus musculus with 6 samples.

Results

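Glycolysis and pyruvate genes were examined as a set of 32 genes in regulatory T cells sorted from the thymus of NOD mice and of C57BL/6 (B6) mice. The members were given as a list of gene symbols, and the rows with those symbols were taken from a deposited table of 32801 genes. All 32 were in the table and all 32 passed the filter on low values. The set holds 2 glucose transporters, 10 genes of upper glycolysis, 6 of lower glycolysis, 4 lactate genes, 7 genes of mitochondrial pyruvate use and 3 genes of oxygen sensing.

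Regulatory T cells are CD4 T cells that restrain immune responses and carry the transcription factor Foxp3. The study sequenced total RNA of such cells from the thymus at 3 weeks of age, with 3 libraries of NOD mice, a strain prone to autoimmune diabetes, and 3 libraries of B6 mice. In both strains the sorted cells were negative for GFP and CD8 and positive for CD4 and Thy1.1. The labels name no treatment and do not say what GFP or Thy1.1 report, nor whether the 3 libraries of a strain came from separate animals, so p-values measure the spread between these libraries, which may be technical.

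Glycolysis splits glucose into pyruvate in the cytosol and yields ATP without oxygen. Pyruvate is then either reduced to lactate, which leaves the cell through monocarboxylate carriers, or carried into mitochondria, where the pyruvate dehydrogenase complex turns it into acetyl-CoA and pyruvate dehydrogenase kinases hold that complex back. The transcription factor HIF-1 is known to switch on many genes of this route when oxygen is low, and dividing T cells lean on it heavily, while regulatory T cells are described as less glycolytic than effector T cells.

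Values are normalized counts, which the authors obtained by dividing reads by a size factor per library. Log2 fold changes are NOD over B6 on the log2(value + 1) scale, given with their standard error. A gene was called higher or lower at an adjusted p below 0.05 (limma, Benjamini-Hochberg over 16442 genes). Library values are given for NOD libraries 2, 10 and 18 and for B6 libraries 4, 12 and 20, in that order. The libraries totalled between 16097369 and 17625903 normalized counts, and their depth was estimated at 15500000 to 21600000 reads. Foxp3, which defines the sorted lineage, was at 2310, 1701 and 2044 in NOD, against 2446, 1954 and 1784 in B6. Of the 5 T-cell markers, Cd3e was called higher, at 2118, 1598 and 2031 in NOD against 1088, 1051 and 1207 in B6, and Cd4, at 7952, 7248 and 7846 in NOD against 6334, 5825 and 6407 in B6, did not overlap but was not called. Summed markers of other cells were low in both strains, at 136 to 196 in NOD and 144 to 193 in B6 over 5 B-cell genes and at 238 to 320 in NOD and 250 to 304 in B6 over 6 immature thymocyte genes. The sum over 7 myeloid and dendritic genes was 1110 to 1393 in NOD and 1341 to 1552 in B6. Called markers of other cells were Cd8a, at 124, 35 and 100 in NOD against 10, 17 and 18 in B6, Rag1, at 49, 55 and 67 in NOD against 155, 100 and 111 in B6, and Cd74, at 334, 315 and 406 in NOD against 654, 746 and 792 in B6, and their part in the results was not tested. In bulk RNA, fewer cells of a type and less RNA per cell cannot be told apart.

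Of the 32 genes, 3 were higher in NOD (Slc2a3, Aldoc and Hif1a), 3 were lower (Ldhb, Pdk1 and Gapdh) and 26 were not called. The called genes were 18.8% of the 32, divided evenly between the directions, against 9.89% of all genes tested (4.59% higher and 5.3% lower). With 32 genes chosen by name, this share is a description and was not tested. The median log2 fold change was 0.10 over the 32 genes and 0.01 over all genes tested. The NOD libraries lay above all B6 libraries in 7 members, below them in 4 and overlapped in 21, where 24.1% of all tested genes did not overlap in either direction. Ldhb, Pdk1 and Slc2a3 kept their calls in 17 of 17 alternative analyses, Hif1a in 12, Aldoc in 11 and Gapdh in 10. The authors' deposited table, which calls 9.75% of the 21988 genes it gives an adjusted p for, calls 6 of the 32, with Pgk1 and Bnip3 in the place of Hif1a and Gapdh.

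**Figure D1:**
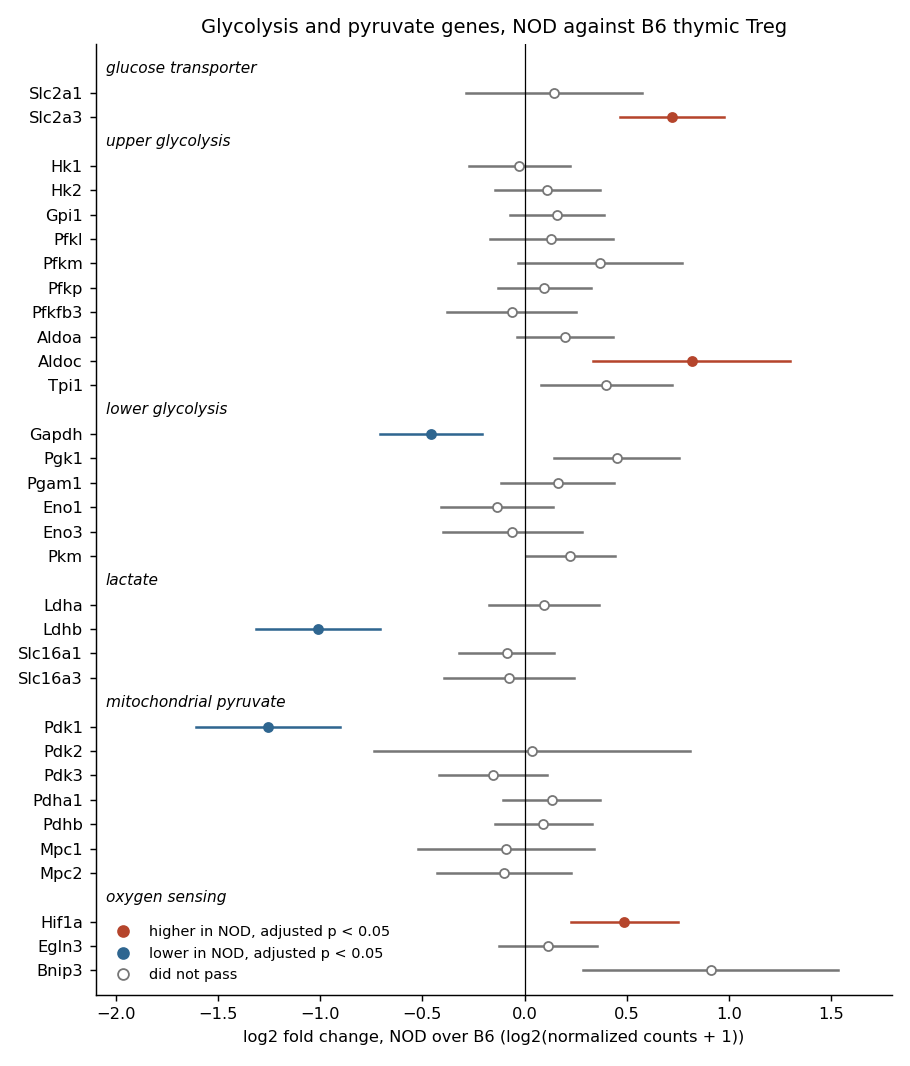
Log2 fold change of NOD over B6 (x axis, log2(value + 1) scale) for each of the 32 genes (y axis), grouped by role, with 95% confidence intervals and filled points for the 6 called genes. The intervals of Pdk1 and Ldhb lie around -1.26 and -1.01, and those of most other genes span 0.

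Some members have near-identical copies elsewhere in the genome, and the sequences of 2 such pairs are printed because the levels of the copies differ between the strains. Each line gives 51 bases of the coding strand from the B6 reference (GENCODE M21, GRCm38), at coding positions 399 to 449 of Gapdh and 701 to 751 of Eno1, counted from 1 at the start codon. The capital letter marks the base at which member and copy differ.
Gapdh: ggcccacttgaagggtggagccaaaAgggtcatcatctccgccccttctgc
Gm13394: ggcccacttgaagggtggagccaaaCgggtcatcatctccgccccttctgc
Eno1: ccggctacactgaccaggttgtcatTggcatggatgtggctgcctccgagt
Gm4735: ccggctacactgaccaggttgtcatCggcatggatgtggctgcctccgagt
Gm13394, a processed pseudogene on chromosome 2 (28933610 to 28934609), differed from Gapdh in 1 of 999 aligned bases, A424C. Gm4735, a processed pseudogene on chromosome 2 (80837141 to 80838442), differed from Eno1 in 5 of 1302, among them T726C. A short read that lies within the aligned bases and spans none of the differing ones cannot be told apart between member and copy.

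Glucose enters T cells through Slc2a1 (GLUT1) and Slc2a3 (GLUT3), a transporter with high affinity for glucose that is known from neurons and leukocytes. Slc2a3 (chromosome 6, 122727809 to 122801640) had 1246, 1251 and 1374 normalized counts in NOD, against 874, 733 and 747 in B6. The lowest NOD library lay above the highest B6 library. Slc2a3 averaged 1290 ± 72.5 in NOD and 785 ± 77.7 in B6 (n = 3 each, mean ± SD), with a log2 fold change of 0.72 ± 0.12 (limma adjusted p = 0.0018). Slc2a1 had 630, 517 and 369 in NOD, against 441, 524 and 386 in B6. These ranges overlapped, with both the highest and the lowest of the 6 values in NOD, and the log2 fold change was 0.14 ± 0.20 (limma adjusted p = 0.78). The Slc2a3 to Slc2a1 ratio averaged 2.71 ± 0.908 in NOD and 1.77 ± 0.324 in B6 (n = 3 each, mean ± SD). The log2 ratios overlapped between the strains (difference 0.58, exact two-sided permutation p = 0.2, or 0.35 after adjustment over 7 ratios).

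Upper glycolysis traps glucose and splits the sugar into triose phosphates. Aldoc, the aldolase isoenzyme best known from brain, was the 1 gene called among its 10 members (10%, against 9.89% of all genes tested). Aldoc (chromosome 11, 78322968 to 78327781) had 156, 176 and 156 normalized counts in NOD, against 85, 121 and 75 in B6. The strains did not overlap, and B6 library 12 stood nearest to NOD. Aldoc averaged 163 ± 11.5 in NOD and 93.7 ± 24.2 in B6 (n = 3 each, mean ± SD), with a log2 fold change of 0.82 ± 0.22 (limma adjusted p = 0.037). Its call was lost when NOD library 2, 10 or 18 or B6 library 4 or 20 was left out, with adjusted p between 0.078 and 0.13 (limma).

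Aldoa, the aldolase of muscle and most other cells, was far more abundant, at 1770 ± 117 normalized counts per kilobase of exon in NOD and 1548 ± 141 in B6, against 49.9 ± 3.54 in NOD and 28.7 ± 7.41 in B6 for Aldoc (n = 3 each, mean ± SD). Its log2 fold change was 0.20 (limma adjusted p = 0.36). Aldoc thus stayed a small part of the aldolase RNA in both strains.

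Tpi1, which interconverts the triose phosphates, had 3261, 2196 and 2758 in NOD, against 1998, 1865 and 2306 in B6. NOD library 10 lay inside the B6 range and the other NOD libraries lay above it. The log2 fold change of Tpi1 was 0.40 ± 0.15 (limma adjusted p = 0.13), and the adjusted p was 0.016 without NOD library 10 (limma). The hexokinases, which phosphorylate glucose, had log2 fold changes of -0.03 for Hk1 and 0.11 for Hk2. Hk2, the inducible form, was above B6 in each NOD library but by a small margin, at 555, 571 and 523 in NOD against 499, 510 and 516 in B6.

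The phosphofructokinases catalyse the committed step of the pathway. Pfkm, the muscle form, had 235, 175 and 209 in NOD, against 181, 148 and 148 in B6, and these ranges overlapped (log2 fold change 0.37 ± 0.18, limma adjusted p = 0.29). Pfkl, the liver form, and Pfkp, the platelet form and the most abundant of them per kilobase, had log2 fold changes of 0.13 and 0.10. Gpi1, the glucose phosphate isomerase, and Pfkfb3, which makes the activator fructose 2,6-bisphosphate, had 0.16 and -0.06, and neither was called.

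**Figure D2:**
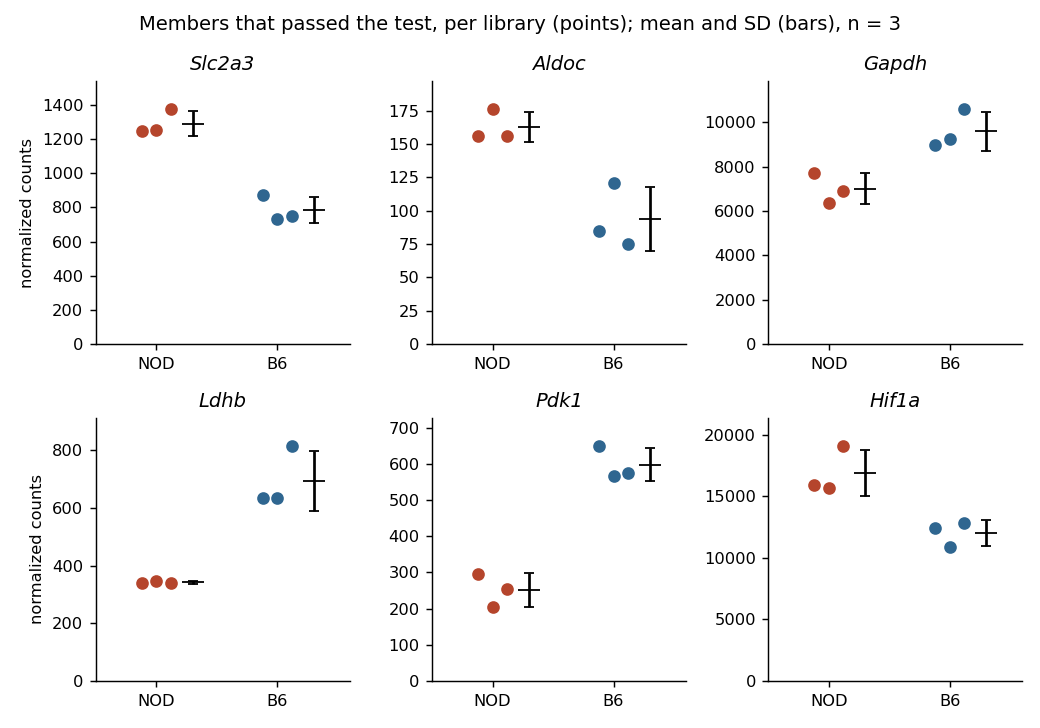
Normalized counts (y axis) of the 6 called genes in each library, with NOD left of B6, points for libraries and bars for the mean and SD (n = 3 each). The strains do not overlap in these 6 genes, with Slc2a3, Aldoc and Hif1a higher in NOD and Gapdh, Ldhb and Pdk1 lower.

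Lower glycolysis turns triose phosphates into pyruvate and returns ATP. Gapdh, its first enzyme and a common reference gene in expression assays, had 7734, 6346 and 6908 normalized counts in NOD, against 8966, 9234 and 10590 in B6. Every NOD library was below every B6 library. Gapdh (chromosome 6, 125161715 to 125166467) averaged 6996 ± 698 in NOD and 9597 ± 871 in B6 (n = 3 each, mean ± SD), with a log2 fold change of -0.46 ± 0.11 (limma adjusted p = 0.025). The call was lost when NOD library 10 or 18 or B6 library 4, 12 or 20 was left out, with adjusted p between 0.052 and 0.097 (limma), and the authors' deposited table gives an adjusted p of 0.14.

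The Gapdh copy Gm13394, whose sequence is printed above, had 1347, 1013 and 1114 normalized counts in NOD, against 3, 4 and 1 in B6. It was called higher in NOD (limma adjusted p = 4.9e-08), but it passed the filter on low values only through the NOD libraries. The call therefore adds no support to these values. The 101 listed copies of Gapdh summed to 1654, 1368 and 1495 in NOD, against 399, 502 and 355 in B6. Gapdh and its copies together had 9388, 7714 and 8403 in NOD, against 9365, 9736 and 10945 in B6. That sum overlapped between the strains, through NOD library 2 and B6 library 4. Its log2 fold change was -0.24 ± 0.11 (limma adjusted p = 0.27), so the Gapdh call did not hold once the copies were counted with it. The copy rule, chosen after seeing the data, left out Peli2, a protein-coding gene that matches 81.4% of the Gapdh coding sequence. Peli2 had 81, 42 and 55 in NOD, against 491, 377 and 504 in B6, and with it the summed values would not overlap. How much of the Peli2 counts comes from the matching bases was not tested. Iffo1, which shares 68 exon bases with Gapdh on the opposite strand, was also lower, at 181, 249 and 207 in NOD against 416, 292 and 317 in B6.

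Eno1, the main enolase of most cells, overlapped between the strains, at 5586, 4158 and 4970 in NOD against 5378, 4896 and 5783 in B6 (log2 fold change -0.13 ± 0.12, limma adjusted p = 0.65). Of its 5 copies, the 2 most abundant and Gm5855 did not overlap. Eno1b, an intronless protein-coding copy that differs from Eno1 in 8 of 1302 coding bases, had 662, 722 and 780 in NOD, against 5, 7 and 5 in B6 (log2 fold change 6.77 ± 0.24, limma adjusted p = 1.9e-08). Eno1b too passed the filter only through the NOD libraries. Its fold change rests on B6 values near the floor and its call adds no support. Gm4735 had 446, 448 and 459 in NOD, against 21, 10 and 8 in B6. Eno1 and its 5 copies summed to 6713, 5349 and 6230 in NOD and to 5411, 4925 and 5801 in B6, and the log2 fold change turned to 0.18 ± 0.12 (limma adjusted p = 0.46). Neither value was called. Mapping used the B6-derived genome for both strains, and a sequence difference between the strains in the gene or its copies was not tested.

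**Figure D3:**
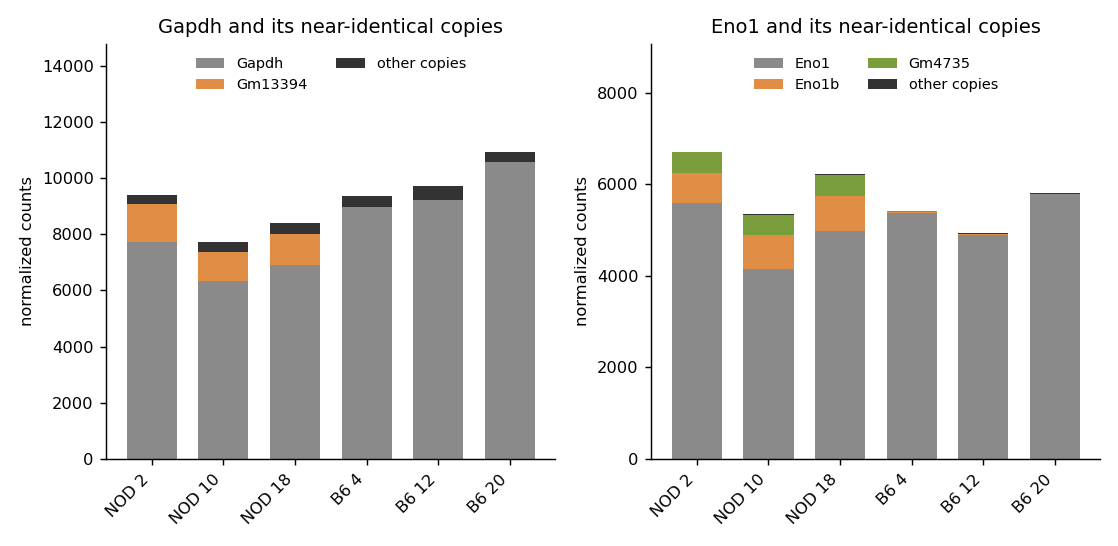
Normalized counts (y axis) of Gapdh and of Eno1, stacked with those of their copies, in each library (x axis), NOD left of B6. The copies make up 1654, 1368 and 1495 counts of the Gapdh sum in NOD and 399, 502 and 355 in B6, and 1127, 1191 and 1260 counts of the Eno1 sum in NOD and 33, 29 and 18 in B6.

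Pgk1, the phosphoglycerate kinase that makes the first ATP of the pathway, had 5259, 3892 and 4641 in NOD, against 2868, 3395 and 3821 in B6. The lowest NOD library lay just above the highest B6 library. The log2 fold change of Pgk1 was 0.45 ± 0.14 (limma adjusted p = 0.069), while the authors' deposited table gives 0.45 with an adjusted p of 0.010. Pkm, the pyruvate kinase of most adult cells and lymphocytes, had 15090, 14826 and 14884 in NOD, against 12332, 12376 and 13684 in B6. Its strains did not overlap either, but the log2 fold change was 0.22 ± 0.10 (limma adjusted p = 0.23). The mutase Pgam1 and the muscle enolase Eno3 had log2 fold changes of 0.16 and -0.06.

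Tpi1 and Pgk1 were at their lowest NOD value in library 10, as were the proliferation markers Mki67 (5341, 2134 and 5182 in NOD, against 3714, 3522 and 3962 in B6) and Top2a (4879, 2040 and 4863 in NOD, against 3645, 3158 and 4163 in B6). Over 6 proliferation genes the sums were 16054, 8820 and 16096 in NOD and 12664, 12482 and 14816 in B6, and 0 of the 6 genes were called between the strains by limma (1 at an unadjusted p below 0.05, 0 in the authors' deposited table). Without NOD library 10, Pgk1 passed with an adjusted p of 0.017 (limma). With ties counted for each library, the lowest NOD value was in NOD library 10 for 16 of the 32 genes, in NOD library 18 for 11 and in NOD library 2 for 7. The highest NOD value was in NOD library 2 for 19, in NOD library 10 for 9 and in NOD library 18 for 4. The shares over all genes tested were not counted. The part of proliferation in these values was not tested.

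Lactate dehydrogenase is a tetramer of A and B subunits, of which the A form favours lactate and the B form favours pyruvate. Ldhb (chromosome 6, 142490249 to 142507957) had 338, 348 and 339 normalized counts in NOD, against 633, 635 and 815 in B6. The 3 NOD libraries lay close together and far below the lowest B6 library. Ldhb averaged 342 ± 5.51 in NOD and 694 ± 105 in B6 (n = 3 each, mean ± SD), with a log2 fold change of -1.01 ± 0.14 (limma adjusted p = 0.00057). Ldhb together with its 1 copy, the pseudogene Gm5514 at 13, 25 and 9 in NOD against 0, 1 and 1 in B6, kept a log2 fold change of -0.95 (limma adjusted p = 0.00093).

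Ldha had 12791, 12090 and 12130 in NOD, against 10271, 10895 and 13741 in B6, and B6 library 20 was the highest of the 6 (log2 fold change 0.10 ± 0.12, limma adjusted p = 0.76). Within each library the ratio of Ldha to Ldhb normalized counts was 37.8, 34.7 and 35.8 in NOD, against 16.2, 17.2 and 16.9 in B6. These ratios are not corrected for length, and Ldha has 3310 exon bases against 1570 for Ldhb. The ratio averaged 36.1 ± 1.58 in NOD and 16.7 ± 0.476 in B6 (n = 3 each, mean ± SD), and it does not depend on the size factors. The mean log2 ratio was 1.11 higher in NOD and the strains did not overlap. The exact two-sided permutation p was 0.1, the smallest that 3 against 3 libraries allow, and 0.35 after Benjamini-Hochberg adjustment over 7 ratios. The ratio is made from the same Ldha and Ldhb values, so it is not separate support for the Ldhb call. Aldoc/Aldoa, Hk2/Hk1 and Pfkp/Pfkl overlapped between the strains, with log2 differences of 0.62, 0.14 and -0.03.

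**Figure D4:**
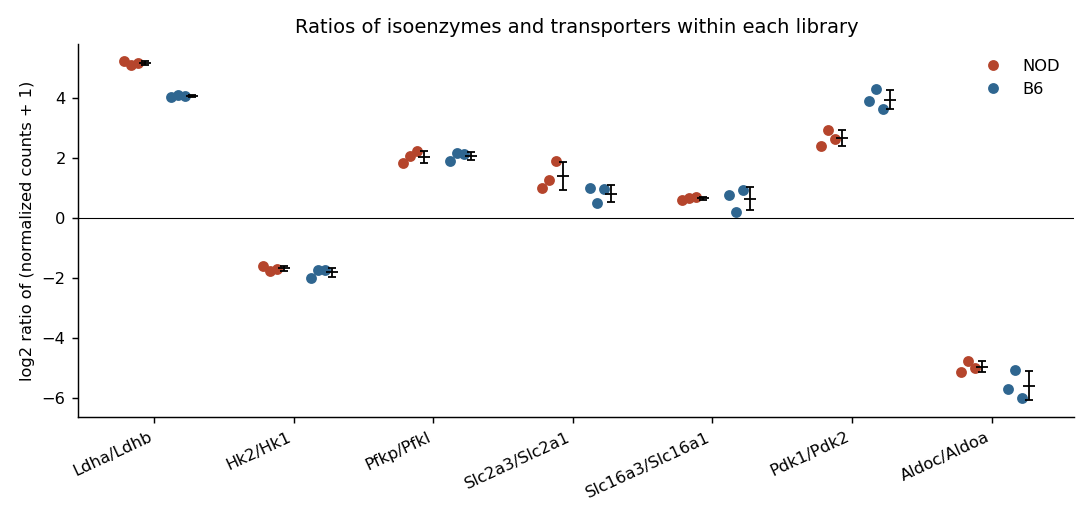
Log2 ratio of the 2 genes of 7 pairs (y axis, log2 of normalized counts + 1) in each library (points), with the mean and SD (bars, n = 3 each), NOD left of B6. Ldha/Ldhb is higher and Pdk1/Pdk2 lower in each NOD library than in any B6 library, and the other 5 pairs overlap.

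The lactate carriers Slc16a1 (MCT1) and Slc16a3 (MCT4, an exporter of glycolytic cells) were not called, with log2 fold changes of -0.09 and -0.08. Slc16a3 spanned 2105 to 2167 in NOD and 1794 to 2792 in B6, so the NOD range lay inside the B6 range. The Slc16a3 to Slc16a1 ratio averaged 1.57 ± 0.0584 in NOD and 1.59 ± 0.392 in B6 (n = 3 each, mean ± SD).

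In mitochondria, Pdk1, a kinase that phosphorylates and so inhibits pyruvate dehydrogenase, had the lowest log2 fold change of the 32 genes. Pdk1 (chromosome 2, 71873224 to 71903858) had 297, 204 and 255 normalized counts in NOD, against 650, 567 and 576 in B6. Every NOD library was under every B6 library by a wide margin. Pdk1 averaged 252 ± 46.6 in NOD and 598 ± 45.5 in B6 (n = 3 each, mean ± SD), with a log2 fold change of -1.26 ± 0.16 (limma adjusted p = 0.00034).

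The other kinases were not called. Pdk3 had 511, 491 and 503 in NOD, against 527, 545 and 607 in B6, below in each library but by a small step (log2 fold change -0.16, limma adjusted p = 0.56). Pdk2 was scarce, at 56, 26 and 40 in NOD against 43, 28 and 45 in B6. The Pdk1 to Pdk2 ratio was 5.30, 7.85 and 6.38 in NOD, against 15.1, 20.3 and 12.8 in B6. These ratios did not overlap (log2 difference -1.29, exact two-sided permutation p = 0.1, adjusted over 7 ratios 0.35). Being made from the same Pdk1 values, they are not separate support for the Pdk1 call.

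The genes of the target of these kinases and of the mitochondrial pyruvate carrier showed no called difference. Pdha1 and Pdhb, the subunits of the E1 enzyme that the kinases act on, had log2 fold changes of 0.13 and 0.09. Map3k15, which shares 603 exon bases with Pdha1 on the opposite strand, was lower in NOD, at 45, 60 and 43 against 133, 99 and 74 in B6. Mpc1 and Mpc2, which together form the mitochondrial pyruvate carrier, had log2 fold changes of -0.09 and -0.10.

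The starts of Ldhb and Pdk1 are shown because these members had the lowest log2 fold changes, each as the 150 bases before the RefSeq start site (GRCm38.p6), 5′ to 3′ on the gene's strand. Capitals mark the core of the hypoxia response element, ACGTG or GCGTG on either strand, to which HIF-1 binds, where the whole core is printed. A second GCGTG of Pdk1, with its first base at -2 from the start site, runs past the printed bases and is left in lower case.
Ldhb, minus strand, chr6:142507958-142508107: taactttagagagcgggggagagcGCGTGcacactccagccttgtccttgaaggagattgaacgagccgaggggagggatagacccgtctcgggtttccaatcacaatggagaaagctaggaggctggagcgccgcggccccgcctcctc
Pdk1, plus strand, chr2:71873074-71873223: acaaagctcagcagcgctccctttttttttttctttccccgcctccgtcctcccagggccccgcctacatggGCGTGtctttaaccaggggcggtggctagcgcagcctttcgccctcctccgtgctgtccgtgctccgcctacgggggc
In windows of 300 bases around the start, a core stood in 37 of 46 promoters of the 31 members with an entry (80.4%), in 7899 of 13065 promoters of tested genes (60.5%) and in 14380 of 32851 promoters of the whole table (43.8%). The 5-base core is frequent, and a match describes the letters and not a bound site.

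Hif1a, the oxygen-regulated subunit of HIF-1, had 15897, 15724 and 19111 normalized counts in NOD, against 12410, 10868 and 12839 in B6. The strains did not overlap, and NOD library 18 was the highest. Hif1a (chromosome 12, 73901375 to 73947530) averaged 16911 ± 1908 in NOD and 12039 ± 1037 in B6 (n = 3 each, mean ± SD), with a log2 fold change of 0.49 ± 0.12 (limma adjusted p = 0.023). Leaving out NOD library 18 or B6 library 4 or 12 ended the call, with adjusted p between 0.062 and 0.11 (limma), and the authors' deposited table gives 0.060. Gm15283, a gene that shares 330 exon bases with Hif1a on the opposite strand, was higher too, at 965, 1026 and 1211 in NOD against 759, 714 and 580 in B6, and the strand setting of the counts is not given in the sources used here.

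Bnip3, a mitophagy receptor induced by HIF-1, had 86, 64 and 69 in NOD, against 36, 30 and 51 in B6. The strains did not overlap, but the spread within them was wide at these low values (log2 fold change 0.91 ± 0.28, limma adjusted p = 0.074). The authors' deposited table gives Bnip3 an adjusted p of 0.028. Summed with 3 copies, Bnip3 had 92, 85 and 76 in NOD, against 37, 30 and 51 in B6, and passed the threshold (limma adjusted p = 0.023). The copy AC160336.1 had 6, 20 and 7 in NOD, against 1, 0 and 0 in B6, and did not itself pass the filter on low values. The call of the sum therefore adds no support to Bnip3. Egln3, a prolyl hydroxylase that marks HIF subunits for decay and is itself induced by HIF-1, spanned 841 to 896 in NOD and 771 to 844 in B6 (log2 fold change 0.11, limma adjusted p = 0.65).

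Levels of the 32 genes can be set against each other per kilobase of exon. The length used was the union of all annotated exons of a gene, over all its transcript forms. Ranks between genes therefore also depend on the annotation. Ldha led in both strains, with 3727 ± 119 normalized counts per kilobase in NOD and 3515 ± 559 in B6 (n = 3 each, mean ± SD), followed by Pkm at 2986 ± 27.7 in NOD and 2559 ± 154 in B6. Hif1a ranked at 3 in NOD and 4 in B6, and Gapdh at 6 in NOD and 3 in B6, with 1693 ± 169 in NOD and 2322 ± 211 in B6. These Gapdh levels leave out its copies, and the Gapdh call did not hold once the copies were counted with it. In NOD the levels of Pkm and Hif1a (2868 ± 324) lay within their spread, as did Aldoa and Gapdh. Ldhb ranked at 18 in NOD and 12 in B6, and Pdk1 at 30 in NOD and 26 in B6. Pdk2 was lowest in both, at 12.9 ± 4.75 in NOD and 12.2 ± 2.94 in B6.

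**Figure D5:**
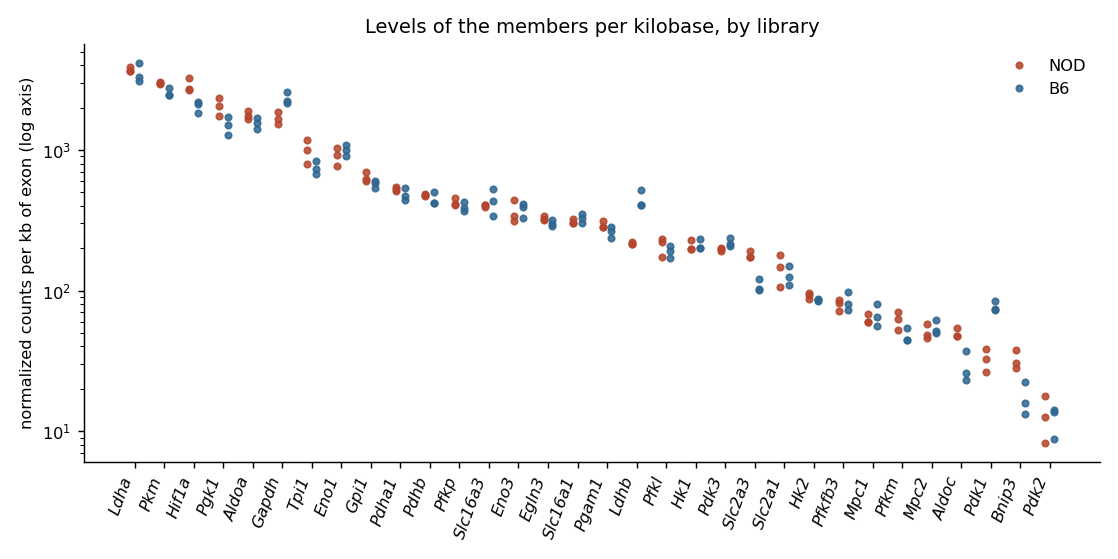
Level per kilobase of exon (y axis, log scale, normalized counts per kilobase) of the 32 genes (x axis, in order of their NOD mean), with 1 point per library and NOD left of B6. Ldha and Pkm are at the top in both strains and Pdk2 at the bottom, and Ldhb and Pdk1 stand lower in NOD.

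Of 107 further genes of the pathway and its branches, 77 were tested, 4 were higher (Eno1b, described above, among them) and 2 lower in NOD. The called genes were 7.79% of those tested, against 9.89% of all genes, and the median log2 fold change was 0.03. Among other glycolytic isoenzymes, 1 of 18 tested genes was higher (5.56%). The authors' deposited table calls 2 of them, Eno2 and Adpgk (log2 fold change -0.26, adjusted p = 0.038). The gene called here was Eno2, the neuronal enolase, at 729, 657 and 672 in NOD against 535, 486 and 371 in B6 (log2 fold change 0.58 ± 0.15, limma adjusted p = 0.032). Leaving out NOD library 2 or 18 or B6 library 12 or 20 ended its call. Of 11 genes of the pentose phosphate and hexosamine branches and 18 regulators of glycolysis, 0 were called by limma. An unadjusted p below 0.05 was reached by 2 of the branch genes and 4 of the regulators, and the authors' deposited table calls 0 of either list. The 3 most abundant regulators, Txnip, which limits glucose uptake, the transcription factor gene Foxo1 and the kinase gene Akt2, had log2 fold changes of 0.33, 0.28 and 0.32, while 10 of the 18 regulators had negative values and the list's median was -0.05.

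Among 12 tested genes of pyruvate handling, 1 was higher and 1 lower, which is 16.7%, against 9.89% of all genes tested. The authors' deposited table calls both and also Dlat, an enzyme of the pyruvate dehydrogenase complex (log2 fold change 0.36, adjusted p = 0.032), which is named for that call. Emb (embigin), a chaperone of monocarboxylate carriers, had 10836, 10540 and 10718 in NOD, against 14964, 15052 and 18337 in B6, without overlap (log2 fold change -0.58 ± 0.11, limma adjusted p = 0.0055). Bsg (basigin), the other such chaperone, was not called, at 1539 to 1582 in NOD and 1564 to 1678 in B6. Me2, a mitochondrial malic enzyme that makes pyruvate from malate, had 1213, 1196 and 1095 in NOD, against 830, 916 and 909 in B6 (log2 fold change 0.40 ± 0.11, limma adjusted p = 0.039). The Me2 call was lost whichever of the 6 libraries was left out.

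Of 17 tested genes of the HIF pathway, 1 was higher and 1 lower, which is 11.8%, against 9.89% of all genes tested. The authors' deposited table calls 2, Epas1 and P4ha1. Epas1, which encodes the HIF-2 alpha subunit, had 527, 670 and 554 in NOD, against 1256, 1405 and 1257 in B6. The highest NOD library lay well under the lowest B6 library, and the log2 fold change was -1.17 ± 0.13 (limma adjusted p = 0.0001). Epas1 thus differed in the opposite direction to Hif1a, and its call held in 17 of 17 alternative analyses. P4ha1, a collagen prolyl hydroxylase induced by hypoxia, had 2312, 2504 and 1728 in NOD, against 1485, 1556 and 1317 in B6 (log2 fold change 0.57 ± 0.14, limma adjusted p = 0.026). Leaving out any 1 library other than NOD library 18 ended the P4ha1 call. Bnip3l, Kdm3a and Mxi1, the most abundant of those not called, had log2 fold changes of 0.04, 0.08 and -0.05.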

How the data were processed

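Thymic regulatory T cells of 3-week-old NOD and B6 mice were profiled by RNA sequencing, with 3 libraries per strain, and all 6 columns of the deposited file were used (0 unused). Total RNA went through a TruSeq Standard Total RNA LT preparation, per the labels' protocols. Per the submitters' processing notes, Trimmomatic, STAR and DESeq2 were run with mm10. Their versions, the read counter, its annotation and its strandedness were not given in the sources used here. The library columns hold scores, namely reads scaled by the authors with 1 size factor per library and then rounded, per the file headers. The deposited values also include the authors' log2 fold change and their p-value and adjusted p-value. Columns carry library numbers and not the replicate numbers of the labels.

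Size factors were estimated from the whole numbers that such rounding skips or doubles, which gave 15500000 to 21600000 reads per library. For NOD library 2 the pattern was faint, so its 17100000 is the least certain. Depth was not equal, and a deeper library has less counting error. Exact whole reads were not recovered, so no count test was run.

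The design named a count model for raw counts and limma-trend otherwise. Here limma 3.58.1 (R 4.3.3) was run on log2(value + 1) over genes with at least 10 in at least 3 libraries (2 when 1 was left out), with Benjamini-Hochberg adjustment over 16442 genes. The median 95% confidence half-width was 0.45 on the log2 scale. On simulated data with 16385 genes, the fit recovered 40% of genes changed 1.5-fold and 98% of those changed 2-fold. It recovered 100% of those changed 4-fold, with 11 false calls. The changed genes were drawn from the more abundant ones, and all genes and libraries had the same dispersion. Recovery was not simulated for scarce genes or for libraries that differ in noise. No 2 libraries of a strain agreed within sampling noise (chi-square per gene 14.4 to 109). NOD library 10 stood at 90.8 from NOD library 2 and at 109 from NOD library 18. NOD libraries 2 and 18 were at 14.4, and the B6 pairs at 20.9 to 49.0.

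The members and the wider lists were chosen with earlier results of these data known. Every member is named, with library values for those called. From the wider lists every called gene could be named, and of the others the 3 most abundant per list. Coordinates, exon lengths and coding sequences came from GENCODE M21 (GRCm38, which mm10 names), and promoters from RefSeq (GRCm38.p6, 31 of 32 members matched, not Slc2a3). Copies were found with blastn 2.17.0 as annotated pseudogenes, or genes matching over at least 95% of the coding sequence, with at least 90% identity over at least 200 bases elsewhere in the genome. That rule, the summing of copies and the look at overlapping genes were chosen after seeing the data. Python 3.11.15, pandas 2.3.3, Biopython 1.88 and matplotlib 3.10.9 were used.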

Additional observations from a re-analysis of the deposited data

How the results depend on the processing

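Scaling (TMM, median of ratios, quantile), pseudocount, filter, variance model, library weights, a covariate marking NOD library 10 and B6 library 12 (from an earlier analysis of these data), leaving out each library and summing members with their copies were tried. Over the single-gene values, 581 kept direction and side of the threshold, 38 lost it, 11 gained it and 14 turned direction. Of all genes, 755 were higher and 871 lower, against 528 and 638 without the trend. Library quality weights gave 1247 and 1434, and the covariate gave 977 and 1088. With 1 library left out, 490 to 781 were higher and 569 to 1011 lower. Of the 32 genes, 3 were higher, against 1 without the trend, 6 with weights, 6 with the covariate and 1 to 4 with 1 library left out (1 without NOD library 18 or B6 library 4). The 3 lower became 2 to 3. The additional genes with weights or the covariate include Pgk1, Tpi1 and Bnip3, with adjusted p of 0.0032, 0.0092 and 0.013 under weights (limma). Of the wider genes, 4 were higher, against 1 without the trend and 1 to 3 with 1 library left out. The 2 lower were 1 without the trend, 7 with weights and 2 to 5 with 1 library left out (5 without NOD library 10). Hif1a lost its call under quantile normalization (limma adjusted p = 0.068). The cause was not tested, beyond the smaller number of libraries in the leave-outs.

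None of the values that turned direction was called, and their sizes went up to 0.22. They were Eno1 summed with its copies (0.18), Eno3 with library weights (0.0092) and the leave-outs of 7 genes. With 1 library left out, the log2 fold change ran from -0.033 (without NOD library 2) to 0.35 for Slc2a1, from -0.091 to 0.049 for Hk1 (above 0 without NOD library 2 or 18 or B6 library 4) and from -0.16 to 0.058 for Pfkfb3 (above 0 without NOD library 18 or B6 library 20). It ran from -0.21 to 0.043 for Eno3 (above 0 without NOD library 18 or B6 library 12), from -0.22 to 0.31 for Pdk2 (below 0 without NOD library 2 or B6 library 12), from -0.21 to 0.041 for Mpc1 (above 0 without B6 library 12) and from -0.24 to 0.078 for Slc16a3 (above 0 without B6 library 20). No paired analysis was possible because the columns carry no replicate numbers of the labels. Values under about 10, such as most copies in B6, rest on a few reads. With groups of 3, no library was tested as an outlier.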
